A study of Mus musculus with 12 samples.

Results

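Expression of 7 genes was followed in mouse kidney: the uridine phosphorylases Upp1 and Upp2, the pyrimidine salvage enzymes Cda and Uck1, the pyrimidine breakdown enzymes Dpys and Upb1, and Gm13559, a processed pseudogene that lies inside Upp2. They were found by gene symbol among the 57180 genes counted, and all 7 were among the 17163 genes with enough counts to be tested. The 7 genes were chosen by function and position, with their levels and fold changes between the groups of these same libraries already known, so those differences are given as descriptions. Counts of calls and of p-values among the 7 describe this choice and are no support for a difference. Poly(A) RNA was sequenced from kidney tissue scrapes of 12 male C57BL/6J mice, an inbred laboratory strain, which were 60 days old at the start. Control mice (n = 4) received a daily intraperitoneal injection of saline with 2% Tween 80 for 28 days. The treated groups (n = 4 each) received 10 or 20 mg of cannabidiol (CBD) per kg of body weight (b.w.) in the same vehicle on the same schedule. CBD is a plant cannabinoid without the intoxicating effect of tetrahydrocannabinol. Each library came from 1 mouse and held between 15417867 and 23532088 reads counted on genes.

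Uridine phosphorylases split uridine into uracil and ribose 1-phosphate, the step at which uridine leaves salvage for breakdown. Salvage keeps pyrimidines in use: cytidine deaminase (Cda) turns cytidine into uridine, and uridine-cytidine kinase 1 (Uck1) phosphorylates both nucleosides so that they can re-enter the nucleotide pool. Breakdown of uracil and thymine starts with dihydropyrimidine dehydrogenase (Dpyd), goes on with dihydropyrimidinase (Dpys), which opens the ring, and ends with beta-ureidopropionase (Upb1), which releases beta-alanine or beta-aminoisobutyrate. These last enzymes are known mainly from liver and kidney.

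In the GRCm39 annotation, Upp2 (ENSMUSG00000026839) covers chr2:58457282-58685857 on the plus strand. Gm13559 (ENSMUSG00000080985) is an 863-base processed pseudogene at chr2:58630651-58631513 on the same strand. It overlapped 0 bases of Upp2 exons and sat in an intron, 72288 bases after the nearest upstream exon and 13440 bases before the nearest downstream exon. Of the 7 protein-coding transcripts annotated for Upp2, 2 start upstream of Gm13559 and run across it, and 5 start downstream of it. Since both genes lie on the same strand, a read from an unspliced Upp2 transcript inside the pseudogene and a read from the pseudogene itself cannot be told apart in these counts.

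**Figure D1:**
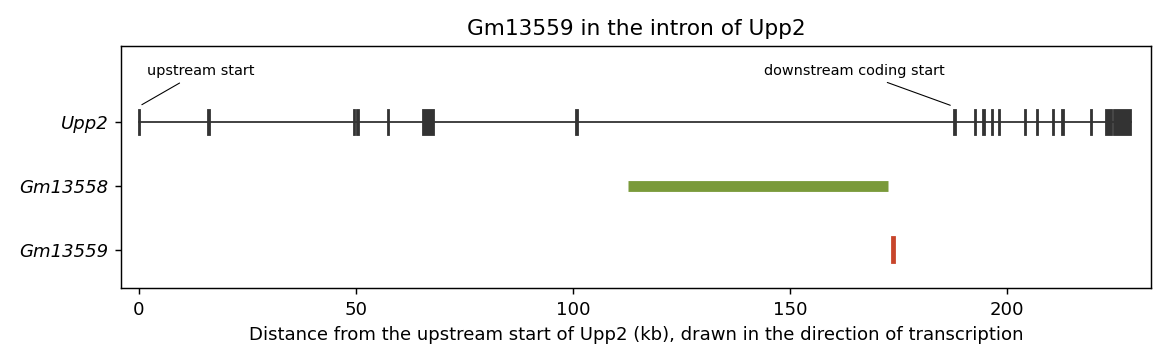
Map of Upp2, the long noncoding RNA Gm13558 and Gm13559, drawn to scale, with the horizontal axis giving the distance from the upstream start of Upp2 in kb. Dark boxes on the Upp2 line are exons of any annotated transcript. Gm13559 lies 173.4 kb from that start and inside no exon.

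The sequence of Gm13559 was not related to that of Upp2. Aligned to all annotated transcripts, it matched Rps2, which encodes ribosomal protein S2, with 86.961% identity over 882 aligned bases and 96 mismatches, and Upp2 was not among the genes it matched. The following stretch is shown because it holds the longest run of bases that the pseudogene shared with its parent gene. It gives 90 bases of each, with the 5 bases that differ in capitals and all others in lower case, 5′ to 3′. The Gm13559 line is chr2:58630897-58630986 on the plus strand of GRCm39, and the Rps2 line is bases 434 to 523 of its coding transcript.
Gm13559: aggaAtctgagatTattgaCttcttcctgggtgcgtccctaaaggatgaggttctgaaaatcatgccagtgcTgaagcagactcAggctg
Rps2: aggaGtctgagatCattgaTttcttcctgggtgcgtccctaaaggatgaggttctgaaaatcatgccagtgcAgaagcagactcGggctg
Between the third and the fourth difference, the 2 sequences are identical for 52 bases, their longest exact run. The longest run it shared with any other transcript was 58 bases, shorter than the 150-base reads of the study. Over windows of 150 bases, Gm13559 differed from Rps2 at 9 bases or more, with a median of 14. Besides Rps2 it matched many other copies of the same gene: 76 of the 88 genes it aligned to were processed pseudogenes.

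The members differed widely in level. In control kidneys Cda was the most abundant member per length of transcript, at a mean of 115 RPKM (normalised counts divided by exon length), followed by Upb1 at 30.2 RPKM, Dpys at 16 RPKM and Uck1 at 8.67 RPKM. The phosphorylases and the pseudogene were low, with mean levels of 2.1 RPKM for Upp2, 1.33 RPKM for Upp1 and 0.896 RPKM for Gm13559. The first 4 genes in this order did not overlap with their neighbours in any control mouse. Neighbouring levels did overlap at the bottom of the order, where the highest control value of Upp1, 1.76 RPKM, lay above the lowest of Upp2, 1.71 RPKM. The lowest of Upp1, 1.1 RPKM, stayed just above the highest of Gm13559, 1.01 RPKM.

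Upp2 was higher in mice given 20 mg CBD/kg b.w. than in control mice, and close to control in mice given 10 mg. In CPM, read counts scaled to library size by the TMM method, Upp2 stood at 26.2, 22.7, 18.5 and 23.4 in the control mice. In the 10 mg group it stood at 18.3, 32.6, 22.9 and 25.7 CPM, a range that included the lowest mouse of all. In the 20 mg group it stood at 43.8, 28.6, 32.4 and 40.9 CPM. All 4 mice of the 20 mg group thus lay above all 4 control mice, the lowest at 28.6 CPM against a control maximum of 26.2 CPM, while the 10 mg group overlapped with both others. The group means were 22.7 ± 3.15 CPM in controls, 24.9 ± 6.00 CPM at 10 mg and 36.4 ± 7.1 CPM at 20 mg (SD, n = 4 each). The log2 fold change against control was 0.13 (standard error 0.18) at 10 mg and 0.68 (standard error 0.18) at 20 mg, and the 20 mg group lay 0.55 (standard error 0.18) above the 10 mg group. Upp2 had between 368 and 747 reads per library, so counting error was small beside the spread between mice. In bulk tissue, fewer or more cells that express a gene cannot be told apart from less or more of its RNA per cell.

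Gm13559 was higher than control at both doses, on few reads and, at 10 mg, by less than its standard error. Its level was 0.798, 0.668, 0.756 and 0.87 CPM in the control mice, from 19, 14, 15 and 16 reads. In the 10 mg group the level was 1.24, 1.06, 0.994 and 1.12 CPM, from 28, 16, 22 and 19 reads. Every mouse of the 10 mg group lay above every control mouse, although their read counts overlapped. In the 20 mg group the level was 2.05, 1.98, 11.8 and 2.2 CPM, from 35, 33, 196 and 39 reads. Replicate 3 of the 20 mg group therefore stood far above all other mice, and the other mice of that group lay close together, above every mouse of the 10 mg and control groups. The log2 fold change against control was 0.51 (standard error 0.56) at 10 mg and 2.53 (standard error 0.53) at 20 mg, with group means of 0.773 ± 0.0845, 1.1 ± 0.104 and 4.5 ± 4.84 CPM (SD, n = 4 each). Both standard errors rest on a spread estimated over all 12 libraries, replicate 3 of the 20 mg group among them. Without that mouse, the log2 fold change was 0.51 at 10 mg and 1.42 at 20 mg. Since it is the highest mouse, a fall at 20 mg was fixed in advance.

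**Figure D2:**
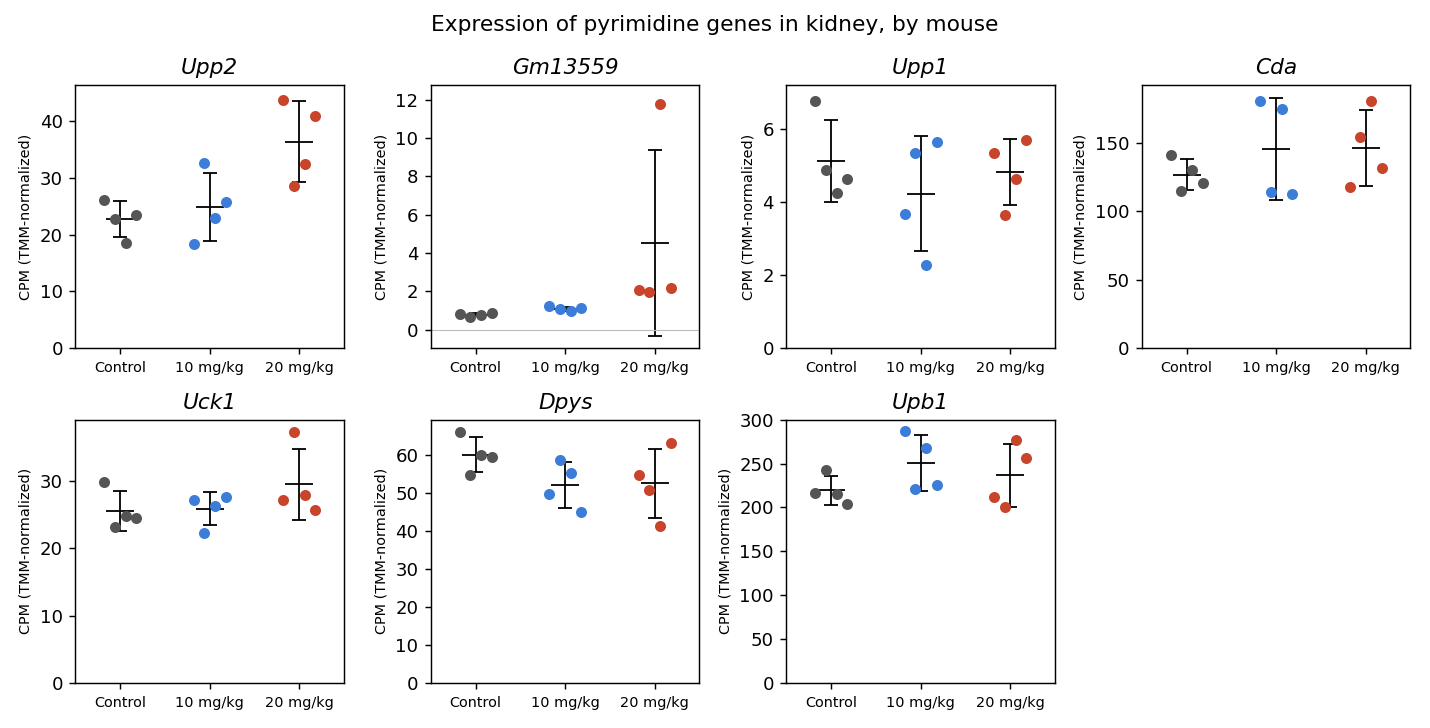
Expression of the 7 genes in each mouse, in CPM normalized by TMM, with 1 point per mouse, the group mean as a horizontal line and bars of 1 SD (n = 4). The 20 mg group lies above the control group for Upp2 and Gm13559, and the Gm13559 panel shows the single mouse at 11.8 CPM. For the other 5 genes the groups overlap.

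Whether the pseudogene followed its host gene was examined mouse by mouse. Groups form separate clusters in Gm13559, so the relation was computed on log2 CPM after the mean of each group was removed. Pearson's r was -0.207 (p = 0.804) and Spearman's rho was -0.217 (p = 0.563) over the 12 mice, by two-sided exact permutation of mice within their groups. This was the only relation computed in its family, so no adjustment was needed. With the 2 mice farthest from the median of Upp2 left out (replicates 1 and 4 of the 20 mg group), Pearson's r was 0.134 (exact permutation p = 0.699, n = 10). Without replicate 3 of the 20 mg group, Pearson's r was -0.0649 (exact permutation p = 0.863, n = 11). Within groups, then, no relation between Gm13559 and Upp2 was detectable in either direction. With 4 mice per group and 14 to 39 reads of Gm13559 in all libraries but the one with 196, a moderate relation could be missed.

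Both genes were high in the 20 mg group, and replicate 4 of that group was the second highest of all mice in each, at 40.9 CPM of Upp2 and 2.2 CPM of Gm13559. Within groups the orders often differed. The mouse with the most Upp2 of all, replicate 1 of the 20 mg group at 43.8 CPM, had 2.05 CPM of Gm13559, while replicate 2 of that group had the least Upp2 of the group, 28.6 CPM, and nearly the same Gm13559, 1.98 CPM. In the 10 mg group, replicate 1 had the least Upp2, 18.3 CPM, and the most Gm13559, 1.24 CPM. Replicate 2 of that group had the most Upp2, 32.6 CPM, and the second lowest Gm13559, 1.06 CPM. Replicate 3 of the 20 mg group, with 11.8 CPM of Gm13559, had 32.4 CPM of Upp2, the second lowest of its group. Expressed as Gm13559 reads per 100 Upp2 reads, the control mice gave 3.05, 2.94, 4.08 and 3.72. The 10 mg group gave 6.78, 3.24, 4.34 and 4.34, and the 20 mg group gave 4.69, 6.9, 36.3 and 5.38. The ratio was thus above all controls in every mouse of the 20 mg group and in 3 of the 4 mice of the 10 mg group.

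**Figure D3:**
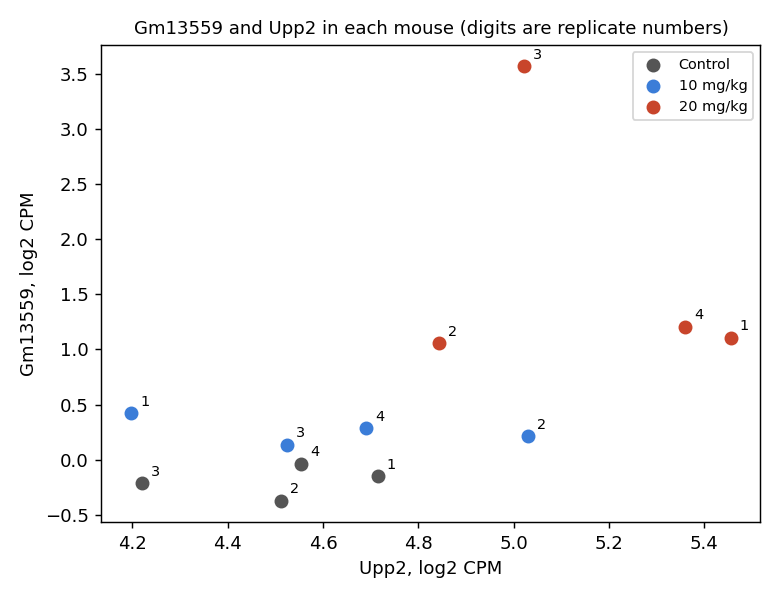
Level of Gm13559 against level of Upp2 in each of the 12 mice, both in log2 CPM (prior count 2), coloured by group and labelled with the replicate number. Groups separate along the Gm13559 axis, while within each group the points show no common slope.

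The region around the pseudogene was read next. The long noncoding RNA Gm13558, which lies in the same intron and ends 799 bases before Gm13559, had 57 reads over all 12 libraries and was too low to be tested. Its counts were 2, 6, 5 and 3 in the control group, 0, 1, 4 and 6 in the 10 mg group, and 2, 8, 11 and 9 in the 20 mg group, so the 11 reads of replicate 3 were not far from those of its neighbours. Acvr1, an activin receptor gene that overlaps the upstream end of Upp2 on the other strand, had a log2 fold change of 0.22 (standard error 0.19) at 20 mg. Ccdc148, a coiled-coil gene downstream of Upp2, had a log2 fold change of 0.02 (standard error 0.19). Both overlapped between the 20 mg and control groups, so neither flanking gene stood apart as Upp2 did. Gm17409 and Gm13557, also within 200 kb, had 4 and 6 reads in all.

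Rps2, the parent of the pseudogene, did not separate the groups. Its level was 253, 293, 217 and 185 CPM in controls, 326, 182, 278 and 195 CPM at 10 mg, and 191, 301, 355 and 256 CPM at 20 mg, and its log2 fold change at 20 mg was 0.22 (standard error 0.22). Replicate 3 of the 20 mg group had the most Rps2 of all, at 355 CPM, but the excess was small beside that of Gm13559. Gm13559 reads per 1000 Rps2 reads ranged from 2.28 to 4.71 in controls and from 3.57 to 5.79 at 10 mg, and stood at 10.8, 6.56, 33.1 and 8.59 at 20 mg. The same library also had the highest share of counts on processed pseudogenes, 0.686%, where the other 11 ranged from 0.384% to 0.546%. Of the 21 tested processed pseudogenes that resemble Gm13559, 9 were highest in this library. That is a larger share than its 18.4% of all genes tested and 19.3% of the 967 processed pseudogenes tested, where an equal share is 8.33%. Summed over all 76 such pseudogenes in the files, this library had 92.5 CPM. Replicates 1 and 3 of the 10 mg group had 84 and 69.5 CPM, and the others 29.5 to 52.8 CPM. None of the 17163 genes tested exceeded Gm13559 in how far this library stood above the next highest, which was 5.34-fold for Gm13559. What part reads from related copies had in its value was not tested.

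Upp1, the second uridine phosphorylase and the form found in most tissues, did not separate the groups. It stood at 6.76, 4.87, 4.23 and 4.62 CPM in controls, at 3.67, 5.34, 2.26 and 5.63 CPM at 10 mg and at 5.33, 3.65, 4.62 and 5.7 CPM at 20 mg. The highest mouse of all was a control and the lowest was in the 10 mg group. The log2 fold change against control was -0.29 (standard error 0.26) at 10 mg and -0.09 (standard error 0.26) at 20 mg. On the same scale Upp2 had 0.68 at 20 mg, so the difference in Upp2 had no counterpart of that size in Upp1.

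The salvage genes also overlapped between groups. Cda stood at 141, 115, 130 and 121 CPM in controls, at 181, 114, 175 and 113 CPM at 10 mg, and at 118, 154, 181 and 132 CPM at 20 mg. The 10 mg group was thus split, with 2 mice above all controls and 2 below them, and its SD of 37.5 CPM compares with 11.3 CPM in controls. The log2 fold change of Cda was 0.20 (standard error 0.18) at 10 mg and 0.21 (standard error 0.18) at 20 mg. The 3 mice with the most Cda, replicates 1 and 3 of the 10 mg group and replicate 3 of the 20 mg group, were also the 3 with the highest share of reads assigned to no gene, 17%, 19.9% and 17.9%, against 12.1% to 16.3% elsewhere. They also had the 3 lowest mitochondrial shares (3.53%, 4.55% and 5.54%) and the 3 highest shares of processed pseudogenes (0.546%, 0.524% and 0.686%). Without these 3 libraries, the log2 fold change of Cda was -0.17 at 10 mg, of opposite sign, and 0.08 at 20 mg. Since they are the mice with the most Cda, a fall was fixed in advance. At 10 mg, only the 2 mice below all controls were left. Control replicate 2, with the next lowest mitochondrial share, 5.77%, had 115 CPM of Cda. What part these shares had in the level of Cda was not tested. Uck1 stood at 29.9, 23.1, 24.8 and 24.5 CPM in controls, at 27.2, 22.3, 26.3 and 27.6 CPM at 10 mg, and at 27.1, 37.2, 27.9 and 25.7 CPM at 20 mg. A single mouse of the 20 mg group stood above the rest. The log2 fold change of Uck1 was 0.02 (standard error 0.14) at 10 mg and 0.20 (standard error 0.14) at 20 mg. Without that mouse it was 0.07 at 20 mg, a fall that leaving out the highest mouse fixed in advance.

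The breakdown genes had log2 fold changes of opposite sign, each smaller than 2 of its standard errors. Dpys stood at 66, 54.8, 59.9 and 59.3 CPM in controls, at 49.6, 58.7, 55.3 and 44.9 CPM at 10 mg, and at 54.7, 50.7, 41.4 and 63.2 CPM at 20 mg. Its log2 fold change was -0.20 (standard error 0.14) at 10 mg and -0.19 (standard error 0.14) at 20 mg, and the highest mouse of all was a control. Upb1 stood at 216, 243, 215 and 204 CPM in controls, at 287, 221, 268 and 226 CPM at 10 mg, and at 212, 201, 277 and 256 CPM at 20 mg. Its log2 fold change was 0.19 (standard error 0.14) at 10 mg and 0.11 (standard error 0.14) at 20 mg. The 3 highest values of Upb1 came from the same 3 libraries as those of Cda. Without them the log2 fold change of Upb1 was 0.02 at both doses, a fall that leaving out the highest mice fixed in advance.

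**Figure D4:**
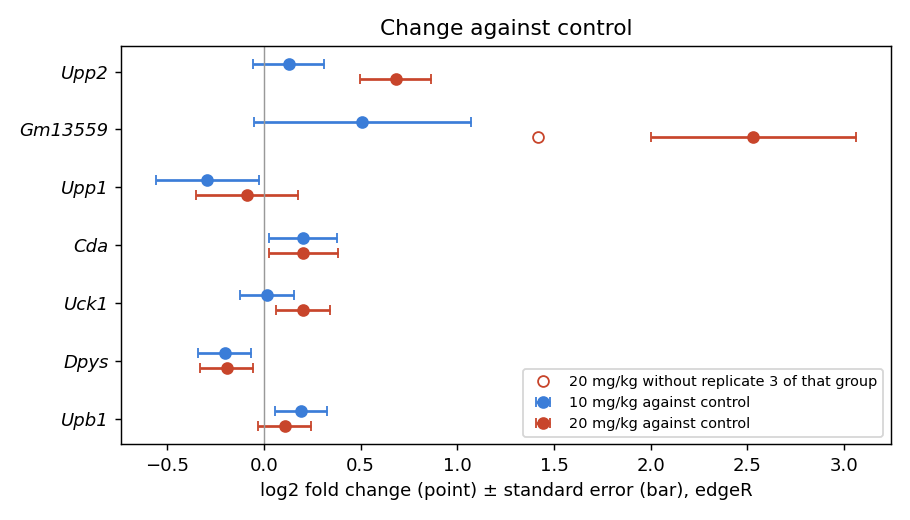
Log2 fold change of each of the 7 genes against control at 10 and 20 mg, with bars of 1 standard error from edgeR's model over all 12 libraries (n = 4 per group). Upp2 and Gm13559 at 20 mg lie apart from the other 5 genes, and the open circle gives Gm13559 at 1.42 without replicate 3 of the 20 mg group.

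Counted together, 1 of the 7 genes, Gm13559, showed no overlap between the 10 mg and control groups, as did 3.19% of all genes tested. At 20 mg it was 2 of 7, Upp2 and Gm13559, beside 5.3% of all genes tested. Between the doses it was 1 of 7, Gm13559, beside 3.1% of all genes tested. Under the study's threshold, an adjusted p-value under 0.1, edgeR called 0 of the 7 genes at 10 mg (0.0291% of all genes called), 1 at 20 mg, Gm13559 (0.303%), and 0 between the doses (0%). DESeq2, which called 167 of all genes at 20 mg, also called 1 of the 7 there. That gene was Upp2, and DESeq2 gave no p-value for Gm13559. None of the 7 had an unadjusted p-value under 0.05 at 10 mg, and the 2 at 20 mg and between the doses were Upp2 and Gm13559, where 5.67%, 8.45% and 6.31% of all genes tested had one in the 3 contrasts. The members were chosen with these contrasts known, so these counts describe the choice. The median log2 fold change over the 7 genes was 0.128 at 10 mg and 0.204 at 20 mg, beside 0.012 and 0.015 over all genes tested.

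The rest of the pyrimidine pathway was taken as a list of 38 further genes found in the files, of which 34 had enough counts to be tested. edgeR called 0 of them at either dose and 0 between the doses. DESeq2 also called 0 of them, where it called 34 of all genes at 10 mg, 167 at 20 mg and 13 between the doses. At an unadjusted edgeR p under 0.05 there were 0 at 10 mg, 2 at 20 mg (5.88%) and 1 between the doses (2.94%). Each share was below that of all genes tested (5.67%, 8.45% and 6.31%). At 20 mg, 14 genes had a positive and 20 a negative log2 fold change, with a median of -0.04 beside 0.015 for all genes tested. By role, none of the 11 salvage genes, 4 breakdown genes, 9 synthesis genes, 6 nucleotidases and 4 nucleoside transporters tested passed at either dose.

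Breakdown, the pathway that uracil from Upp2 would enter, overlapped between control and treated mice in each of its 4 other genes. Dpyd, the first enzyme, was at 81.3 ± 17.5 CPM in controls, 78.4 ± 16.7 CPM at 10 mg and 85.5 ± 26.8 CPM at 20 mg (SD, n = 4 each). Its log2 fold change at 20 mg was 0.07 (standard error 0.23). The enzymes that take the end products further also had small changes at 20 mg: -0.17 (standard error 0.11) for Agxt2, -0.23 (standard error 0.25) for Abat and -0.04 (standard error 0.17) for Aldh6a1, on the log2 scale. Uck2, the second uridine-cytidine kinase, had a log2 fold change of -0.29 (standard error 0.18) at 20 mg, where Uck1 had 0.20.

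Cmpk2, a mitochondrial nucleotide kinase, and Nt5e, the ecto-nucleotidase CD73 of the cell surface, were the 2 genes of smallest unadjusted p at 20 mg. Cmpk2 was at 12.3, 10.7, 10.5 and 10.4 CPM in controls, at 12.4, 9.83, 11.2 and 11 CPM at 10 mg, and at 8.38, 9.76, 7.44 and 9.15 CPM at 20 mg. All 4 mice at 20 mg lay below all controls, and 5.3% of all genes tested likewise had no overlap between these groups, in either direction. The log2 fold change was -0.34 (standard error 0.14), with an edgeR adjusted p of 0.503. Nt5e was at 66.1, 43.8, 60.6 and 52 CPM in controls and at 55.9, 39.5, 30.8 and 41 CPM at 20 mg. The groups overlapped, and the log2 fold change was -0.41 (standard error 0.19) with an edgeR adjusted p of 0.573. Slc29a3, a nucleoside transporter of intracellular membranes, and Ctps1, which makes CTP from UTP, were the 2 of smallest unadjusted p at 10 mg. Slc29a3 was at 95.7, 78.1, 122 and 142 CPM in controls and at 53.7, 101, 77.6 and 94.1 CPM at 10 mg, a log2 fold change of -0.42 (standard error 0.21). Ctps1 was at 17, 17, 17.4 and 11.9 CPM in controls and at 25.3, 17, 22.4 and 15.6 CPM at 10 mg, a log2 fold change of 0.34 (standard error 0.17). Both overlapped between the groups, and both had an edgeR adjusted p of 0.87.

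**Figure D5:**
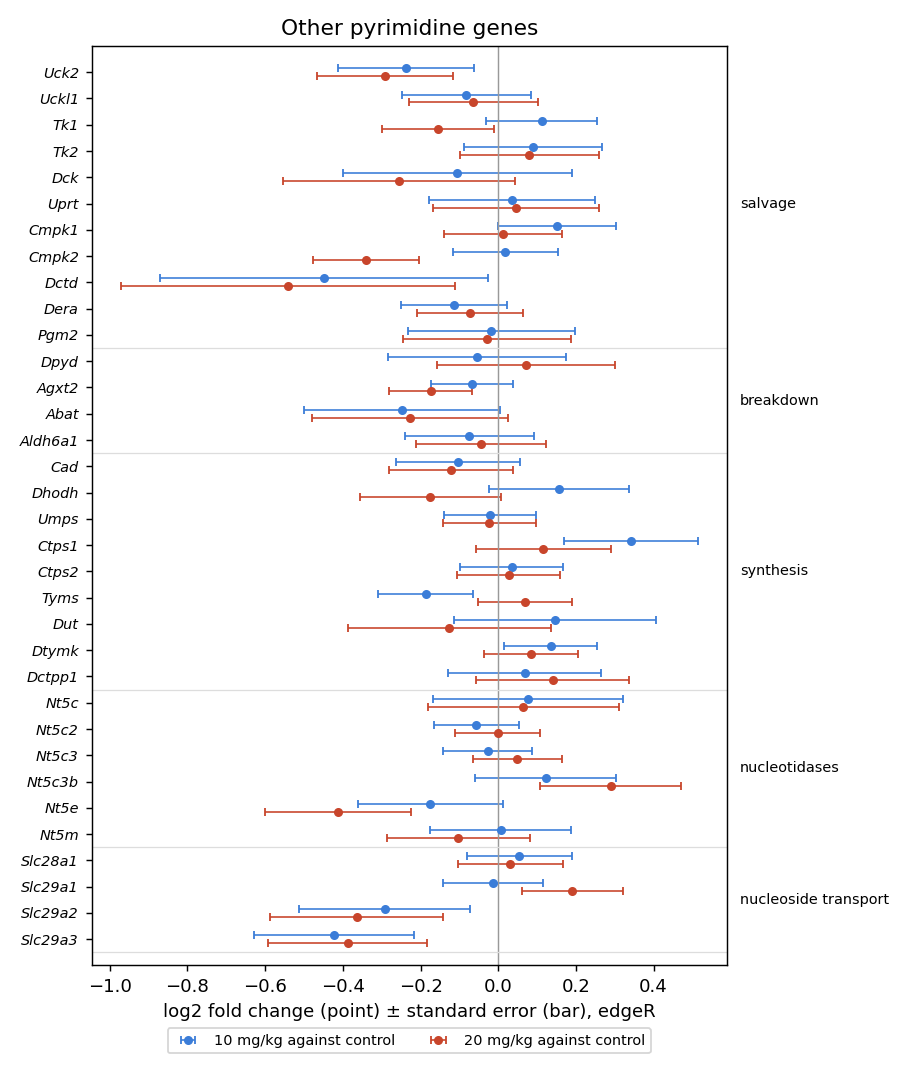
Log2 fold change against control of the 34 other pyrimidine genes tested, at 10 and 20 mg, ordered by role, with bars of 1 standard error from edgeR (n = 4 per group). Most points lie near 0 and 0 of the 34 passed the threshold at either dose.

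The genes whose pattern was most like that of Upp2 over the 12 libraries were Aldh1a7, an aldehyde dehydrogenase (Pearson's r 0.875), Slc25a12, the mitochondrial aspartate-glutamate carrier (0.868), the noncoding Gm48825 (0.868), Fgg, the fibrinogen gamma chain (0.867), and Gdf11, a growth factor (0.858). Gm13559 ranked 732 of the 17162 other genes in likeness to Upp2. The 5 genes most like Gm13559 were Susd3 (0.929), P2rx4 (0.915), Gm17241 (0.908), Cdc42ep4 (0.906) and Gm16153 (0.905). Without replicate 3 of the 20 mg group they were Sparcl1 (0.951), Susd3 (0.939), Cyp2d22 (0.905), Lyrm1 (0.902) and Bhlhe41 (0.896), so Susd3 was the 1 gene in both lists. These values are correlations of log2 CPM over libraries that share treatment groups and preparation, and are given as descriptions.

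The libraries carried the defining genes of kidney. The 6 proximal tubule markers (among them Lrp2, Slc34a1 and Slc22a6) summed to between 6700 and 8540 CPM in controls, between 5550 and 6660 CPM at 10 mg and between 5510 and 6040 CPM at 20 mg. This sum was lower in every treated mouse than in any control. Its part in the values of Upp2 was not tested. The 5 markers of the last, S3, segment of the proximal tubule overlapped between groups, with medians of 1410, 2080 and 1440 CPM for control, 10 mg and 20 mg. The 2 thick limb markers had medians of 1380, 1740 and 1390 CPM, and the 4 markers of distal tubule and collecting duct 1040, 823 and 696 CPM. Both sums overlapped with controls at each dose. The distal sum ranged from 657 to 1080 CPM in controls, 730 to 920 CPM at 10 mg and 623 to 712 CPM at 20 mg. Of markers from tissue outside the kidney, the 7 hepatocyte genes had medians of 100, 99.4 and 118 CPM in their sum, which overlapped between groups. This list is given because Upp2 is also known from liver. Such a sum does not show its single genes, and the part of hepatocyte genes in the values of Upp2 was not tested. The 5 adipocyte genes had medians of 222, 108 and 98.5 CPM, and the 5 adrenal cortex genes 5.49, 4.34 and 4.58 CPM. Both of these sums also overlapped with controls at each dose. No marker was at 0 in all libraries. The mitochondrial share of counts ranged from 3.53% to 23.4%.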

How the data were processed

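Reads were trimmed by the authors (Flexbar), aligned with STAR 2.7.5c against GRCm39 and counted per gene by HTSeq 1.99.2, per the labels and the study's methods. The deposited files hold raw counts, 1 file per mouse, without normalization. The strand setting, the annotation release and the use of molecular identifiers are not given in the sources used here. Identifiers were matched to GENCODE vM39 (99% matched). The HTSeq summary lines, with 12.1% to 19.9% of reads on no gene, were left out of library sizes and tests.

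Counts were filtered with filterByExpr, normalized by TMM and fitted with edgeR 4.0.16 (quasi-likelihood, R 4.3.3), with 1 mean per group over all 12 libraries. Benjamini-Hochberg adjustment ran over 17163 genes, and an adjusted p under 0.1 was a call. The common biological coefficient of variation was 0.208. Standard errors are the log2 fold change over the square root of its F statistic. CPM are TMM-normalized, and RPKM divide them by the annotated exon length. P-values of the fit set a difference between group means against the spread between mice. Gm13559 was aligned with BLAST+ 2.17.0. The fit was tested on simulated data.

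Members and gene lists were chosen with earlier results of these data known. Other genes named are the pyrimidine genes called at any contrast and the 2 of smallest p at each dose, the annotated neighbours within 200 kb with reads, and the 5 genes most like Upp2 and Gm13559. Uck2 and the breakdown genes Dpyd, Agxt2, Abat and Aldh6a1 were named for their role after their values were seen. Alternatives were RLE scaling, no filter, DESeq2 1.42.0, only the groups compared, a replicate block, the mitochondrial share as a covariate, and leaving out libraries. For Upp2, its counts were also summed with those of Gm13559.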

Additional observations from a re-analysis of the deposited data

Results flagged for a closer look

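In groups of 4 mice, a value was flagged when its gap to the nearest other mouse took more than 0.829 of the group's range (Dixon's 95% critical value). Of 33 groups tested, 3 were flagged, and chance flags about 1 in 20 groups. Gm13559 at 11.8 CPM in replicate 3 of the 20 mg group stood above the other mice of its group, with a ratio of 0.977. Ctps1 at 11.9 CPM in replicate 4 of the control group stood below the other controls, with a ratio of 0.936. Cmpk2 at 12.3 CPM in replicate 1 of the control group stood above the other controls, with a ratio of 0.869.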

How the results depend on the processing

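Upp2 at 20 mg kept its direction in all alternatives. With the counts of Gm13559 added, its log2 fold change was 0.801. In the other alternatives it ranged from 0.634 to 0.734, and from 0.58 to 0.78 with 1 library left out. At 10 mg, leaving out replicate 2 of that group turned it to -0.0311, the range with 1 library left out was up to 0.25, and it was 0.353 without the 3 libraries with most reads on no gene (replicates 1 and 3 of the 10 mg group and 3 of the 20 mg group, chosen after seeing the data). Gm13559 at 20 mg ranged from 1.42 to 2.77 with 1 library left out, the lowest without replicate 3 of that group, and was 1.42 without these 3. At 10 mg Gm13559 ranged from 0.442 to 0.565 with 1 library left out and was 0.213 with the mitochondrial covariate. Its call was kept in the 4 fits without a 20 mg library and lost without any control or 10 mg library, so members called at 20 mg ranged from 0 to 1. Members called at 20 mg were 2 without a filter, 2 with the mitochondrial covariate and 2 without the 3 libraries (Upp2 and Gm13559 each time), and 0 with only the groups compared or with the replicate block. Between the doses they were 2 without a filter and 1 with the mitochondrial covariate (Gm13559). Among members not called, Upp1 at 10 mg turned positive (0.0901) and Cda at 10 mg negative (-0.165) without the 3 libraries, and Upp1 at 20 mg turned positive without control replicate 1 (0.0815) or replicate 2 of the 20 mg group (0.0232). Uck1 at 10 mg, 0.0159, turned negative without the 3 libraries (-0.0414), without a filter (-0.011) and without control replicates 2, 3 or 4 or replicates 1 or 4 of the 10 mg group (to -0.0316). Cda and Upb1 at 20 mg fell to 0.0835 and 0.0219 without replicate 3 of that group, Uck1 to 0.0707 without replicate 2, and Upb1 at 10 mg to 0.0224 without the 3 libraries. Each left out the highest mice of the group, so a fall was fixed in advance. With the mitochondrial covariate, 3 of 34 other pyrimidine genes were called at 20 mg, all lower (Abat, Nt5e and Slc29a3). Of all 17163 genes it was 1386 (573 lower).

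Over all genes, calls at 10 mg were 331 without a filter, 34 with DESeq2 and 15 with the mitochondrial covariate, against 5. At 20 mg they were 416 without a filter, 167 with DESeq2, 27 with the replicate block, 1386 with the mitochondrial covariate and 86 without the 3 libraries, against 52. Between the doses they were 256 without a filter, 13 with DESeq2 and 62 with the mitochondrial covariate, against 0. With 1 library left out, calls ranged from 2 to 8 at 10 mg and from 14 to 54 at 20 mg, and at 20 mg they moved by over 1.5 times without any control library (14 to 32) and without replicate 2, 3 or 4 of the 20 mg group (19 to 29). At 10 mg they did so without any control or 10 mg library but control replicate 2. The causes were not tested. The correlation of Gm13559 with Upp2 ranged from -0.439 to -0.0614 with 1 library left out. With group means kept it is given only as a rank, since the groups form separate clusters. With the replicate block, Upp2 at 20 mg was 0.685 and Gm13559 2.2. Deviations of same-numbered mice correlated from -0.33 to 0.317, over 0.1 in 4 of 12 pairs. Whether the numbers pair the mice was not tested. At 14 to 39 reads in most libraries, depth limits what Gm13559 can show.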
